A study of Mus musculus with 9 samples.

Results

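Wildtype N1E-115 cells were profiled on 3 arrays, lettered A, B and C, out of 9 in the series, and these were taken by their titles as the wildtype arrays of a Tcof1 study. N1E-115 is a mouse neuroblastoma cell line, a clone grown in culture that is classed as adrenergic because it makes catecholamines. The labels give the cells as carrying wildtype mouse Tcof1, measured as total RNA. They name no transgene, agent, vector or time for these arrays, and the source field of array A spells the line N1-115. The remaining 6 arrays, from cells overexpressing Tcof1 and cells with Tcof1 knocked down, were not used here. No label says that A, B and C came from different cultures, so the spread between arrays may be technical.

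Neuroblastoma arises from the sympathoadrenal branch of the neural crest, the embryonic cells that also form sympathetic neurons and the chromaffin cells of the adrenal medulla. Cells of this lineage are specified by factors such as Phox2a, Hand2 and Gata2. They make noradrenaline from tyrosine by way of tyrosine hydroxylase, aromatic amino acid decarboxylase and dopamine beta-hydroxylase, and they store it in dense core vesicles with granins. A tumour line adds to this program the transcripts of continuous growth, among them those of ribosomes, glycolysis and the cell cycle.

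Each of 22626 non-control probe sets was ranked by its mean intensity over the 3 arrays. The means had a median of 173.7 and quartiles of 46.5 and 581.2, and the brightest stood at 30985. Intensity depends on how well each probe set hybridises as well as on the transcript, so a rank is one of brightness and not of transcript abundance. A probe set was called bright when its mean lay in the top 10% of probe sets, at or above 1539. It was called near background when its mean was at or below 89.7, the 75th percentile of genes of unrelated tissues such as liver, lens, retina and sperm. A gene's class is that of the brightest of its probe sets. Of 12393 genes, 1393 were bright, or 11.2%, and 3795 were near background, or 30.6%, and these shares are the background for every count of bright or near-background genes. Where 3 values follow a gene they are those of arrays A, B and C, and ± gives the SD over them (n = 3). Since these are 3 arrays of 1 group, no test was run, and every value is a description. In RNA of a whole culture, fewer cells of a type and less RNA per cell cannot be told apart.

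The background limit was set beside control probe sets that carry no mouse gene. Of 27 control sets for bacterial genes, 26 had a mean at or below it. Over all 27 the means ran from 2.13 to 106.8 with a median of 8.37, so many lay far below the limit. The hybridisation control for the bioB gene, which is used to mark the lower end of reliable detection on such arrays, read 240.3 to 773.7 over its 6 probe sets. Ratios of the 3′ to the 5′ control set were 0.912 to 1.03 for Actb and 0.747 to 0.794 for Gapdh. Among the genes of unrelated tissues, 58 of 78 were near background, as the limit's definition sets, and 1 was bright, the pancreatic elastase gene Cela1 at 1710.4 ± 359. Its probe set read 1309.2, 1821.4 and 2000.6.

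**Figure D1:**
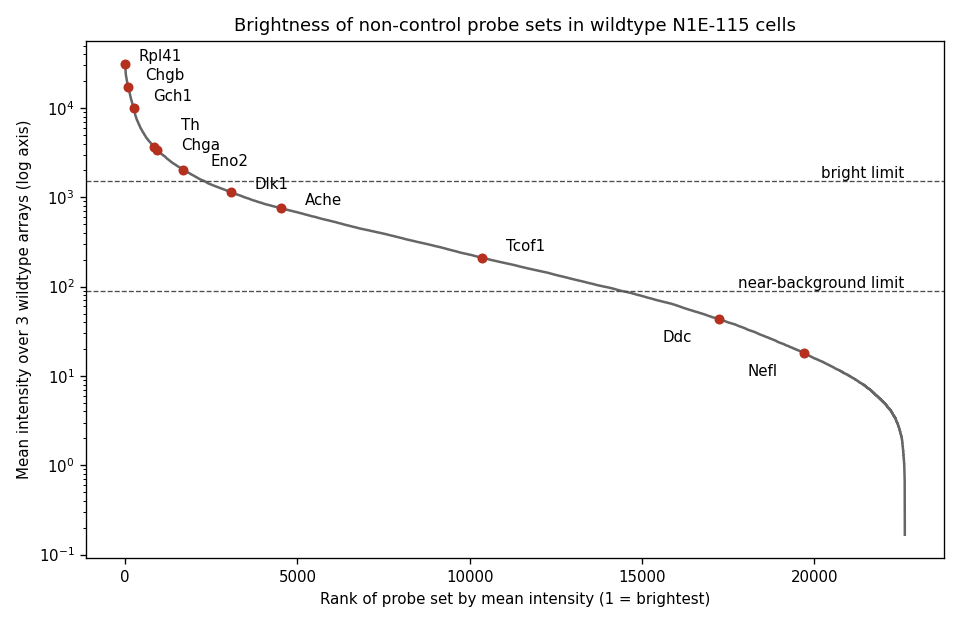
Mean intensity over the 3 wildtype arrays (log axis) of all 22626 non-control probe sets in order of rank, with named genes as red points and the limits of 1539 and 89.7 as dashed lines. Th, Chga and Eno2 lie above the bright limit, Dlk1, Ache and Tcof1 between the limits, and Ddc and Nefl below the lower one.

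The markers of the line were above background, and 3 of the 5 were bright. Each had 1 probe set. Th, which encodes tyrosine hydroxylase, the rate-limiting enzyme of catecholamine synthesis, read 3890.0, 3661.5 and 3504.4 (mean 3685 ± 194, rank 839). Chga, which encodes chromogranin A of dense core vesicles, read 2772.7, 3551.9 and 3745.2 (mean 3357 ± 515, rank 937). Eno2, the neuronal enolase gene, read 2492.3, 1936.3 and 1672.8 (mean 2034 ± 418, rank 1692). These 3 were bright on each array, with array A lowest for Chga and highest for Th and Eno2. Dlk1, a Notch-related membrane protein of fetal tissues and neuroendocrine tumours, read 1192.4, 1111.1 and 1134.5, and Ache, the acetylcholinesterase gene, 655.9, 817.8 and 785.2. Both lay between the limits on each array, at percentiles 86.5 and 80 of all probe sets. None of the 5 was near background on any array.

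Tcof1, which encodes the nucleolar protein treacle, was not among the bright genes of these cells. Its brightest probe set read 167.8, 232.6 and 232.2, at percentile 54.2, and its other 2 sets read 143.1, 156.3 and 149.8, and 163.3, 131.8 and 204.3. No value of the 3 sets fell to the background limit on any array, but all of them lay below the lowest bioB control value of 240.3.

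The catecholamine pathway was bright at its first step and at the supply of its cofactor, and 1 intermediate enzyme was near background. Of 14 measured genes, 4 were bright, 7 between and 3 near background. Gch1, which encodes GTP cyclohydrolase, the first enzyme in making the tetrahydrobiopterin that tyrosine hydroxylase needs, read 11270.1, 9715.8 and 9120.2, rank 242. Its second probe set was dimmer on each array, at 1664.0, 1155.9 and 962.0. Qdpr, which regenerates that cofactor, read 4585.4, 4216.7 and 3689.9, and Pcbd1, which acts in the same recycling, 1428.6, 1540.8 and 1517.1. Pts and Spr, the intermediate steps of cofactor synthesis, had means of 144 ± 27.4 and 324 ± 81.6.

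Dbh, which encodes dopamine beta-hydroxylase, read 1265.5, 1649.9 and 1678.7. Its mean of 1531 ± 231 fell just short of the bright limit, which arrays B and C passed and array A did not. Cyb561, the vesicle cytochrome that supplies electrons to that enzyme, had a mean of 1597 ± 163. Ddc, which encodes the decarboxylase between tyrosine hydroxylase and dopamine beta-hydroxylase, read 6.6, 99.9 and 23.2 on its only named probe set. It was above the background limit on array B alone, and the SD of 49.8 exceeded its mean of 43.2. Pnmt, which turns noradrenaline into adrenaline in chromaffin cells, read 187.3, 19.4 and 53.8, with array A alone above the limit. The vesicular transporter gene Slc18a1 and the noradrenaline transporter gene Slc6a2 lay a little above the limit on each array, at 145 ± 28 and 131 ± 6.38. The dopamine transporter gene Slc6a3 had a mean of 80.1 ± 39.9. Maoa, which breaks catecholamines down, read 719.1, 832.6 and 867.7.

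Of 17 factors of the sympathoadrenal lineage, 4 were bright by their means, 3 of them on each array, 12 were between and 1 near background. Without array A or without array C, 2 were near background, without array C 3 were bright, and with the mean of all probe sets of a gene 2 were bright. Phox2a, a homeodomain factor that activates Th and Dbh in noradrenergic neurons, read 3760.9, 4069.0 and 4660.1 and ranked 718. Sox4 and Lmo1, which are associated with neuroblastoma growth, had means of 3588 ± 394 and 2763 ± 146. Hand2 read 1064.1, 1161.9 and 1753.3, and Isl1 632.0, 910.3 and 1358.9, both highest on array C. Gata2 was steadier, at 1169.4, 1278.2 and 1061.6. Gata3 had a mean of 200.4 ± 96.8, and Tfap2b one of 120.2 ± 39.7. Prox1, a factor of progenitor cells that leave the cycle, was near background on each array at 45.6 ± 11.4.

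Myc and Mycn, the Myc-family genes with a known part in neuroblastoma, had means above the bright limit. Myc read 3002.9, 3523.4 and 3338.0, bright on each array. Mycn read 1379.5, 1641.8 and 1797.3, under the limit on array A, and without array C the Myc network had 9 bright genes in place of 10. The other 2 probe sets of Mycn were dimmer, at 267.0, 262.0 and 192.1 and at 28.1, 135.3 and 88.3, so the call of Mycn rests on 1 set of 3. Mycl, the third family member, had a mean of 75.2 ± 26.9. Of 22 genes of the Myc network, 10 were bright, 10 between and 2 near background. The bright ones included targets such as Npm1 (13345 ± 1070.3), Ldha (12287 ± 2150.5), Ncl (8190.4 ± 214) and Odc1 (3694 ± 731). The binding partner Max was between the limits at 587 ± 92.5, and the antagonist Mxd1 near background at 26.9 ± 3.65.

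Of 19 measured granin, neuropeptide and processing genes, 7 were bright, 2 between and 10 near background. Chgb, which encodes secretogranin I, read 16398.5, 17812.9 and 17656.8 and ranked 92. Scg2, Scg3 and Scg5, other granin-family genes, had means of 6729 ± 892, 3289.9 ± 151 and 2928 ± 363. Cpe, the carboxypeptidase that trims peptide precursors, read 3044.9, 1754.1 and 1508.3, with array A highest, and Pcsk1n, an inhibitor of a prohormone convertase, had a mean of 1973 ± 176. The convertase gene Pcsk1 itself read 14.8, 10.6 and 55.5. Among peptides, Cartpt was between the limits at 374 ± 38.6. Npy (61.1 ± 47.4), Vip (60.1 ± 37), Sst (69.9 ± 41.8), Gal (44.7 ± 7.18), Penk (79.3 ± 43.1) and Nts (23.1 ± 16.4) were near background by their means. Npy passed the limit on array A, Vip on array B, and Sst and Penk on arrays B and C.

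The promoters of Th and of several of these genes hold the letters of the cyclic AMP response element, which CREB-family factors are known to bind, and 6 of them, chosen after the values were seen, are printed because the letters occur in bright and in near-background members. They run from 100 bases before to 20 past the annotated start, 5′ to 3′ on the gene's strand, from RefSeq on build GRCm38.p6. Capitals mark TGACGTNA, which includes the full palindrome TGACGTCA. The windows are chr7:142899976-142900095 (minus strand) for Th, chr12:102554841-102554960 (plus strand) for Chga, chr2:132781542-132781661 (plus strand) for Chgb, chr1:79440007-79440126 (minus strand) for Scg2, chr13:75089757-75089876 (plus strand) for Pcsk1 and chr16:23890825-23890944 (minus strand) for Sst.
Th: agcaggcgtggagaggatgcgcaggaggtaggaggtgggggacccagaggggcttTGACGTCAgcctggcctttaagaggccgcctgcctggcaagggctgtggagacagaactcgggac
Chga: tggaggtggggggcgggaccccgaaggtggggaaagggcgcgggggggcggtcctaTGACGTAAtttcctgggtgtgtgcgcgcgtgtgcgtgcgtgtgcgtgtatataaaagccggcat
Chgb: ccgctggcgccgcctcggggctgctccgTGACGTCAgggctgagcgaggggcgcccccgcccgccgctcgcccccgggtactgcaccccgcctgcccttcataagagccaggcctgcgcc
Scg2: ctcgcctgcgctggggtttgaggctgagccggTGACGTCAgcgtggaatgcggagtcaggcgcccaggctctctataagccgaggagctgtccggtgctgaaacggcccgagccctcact
Pcsk1: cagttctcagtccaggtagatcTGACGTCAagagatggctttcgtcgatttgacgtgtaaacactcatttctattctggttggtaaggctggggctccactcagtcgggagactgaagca
Sst: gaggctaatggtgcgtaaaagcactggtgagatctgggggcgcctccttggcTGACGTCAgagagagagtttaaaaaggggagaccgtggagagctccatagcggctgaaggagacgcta
The letters begin 45 bases before the start in Th, 44 in Chga, 72 in Chgb, 68 in Scg2, 78 in Pcsk1 and 48 in Sst. Of these, Th, Chga, Chgb and Scg2 were bright, and Pcsk1 and Sst near background. Searching both strands of the 300-base windows from 250 bases before to 50 past each start, the palindrome TGACGTCA, whose matches all count as TGACGTNA too, was found in 5 of 20 promoters of the granin and neuropeptide list (25%), in 2.51% of 12566 promoters of measured genes and in 1.79% of 32851 promoters of the whole table. With 1 free base (TGACGTNA) the shares were 30%, 3.88% and 2.93%. A match is a description of letters and not a shown site.

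**Figure D2:**
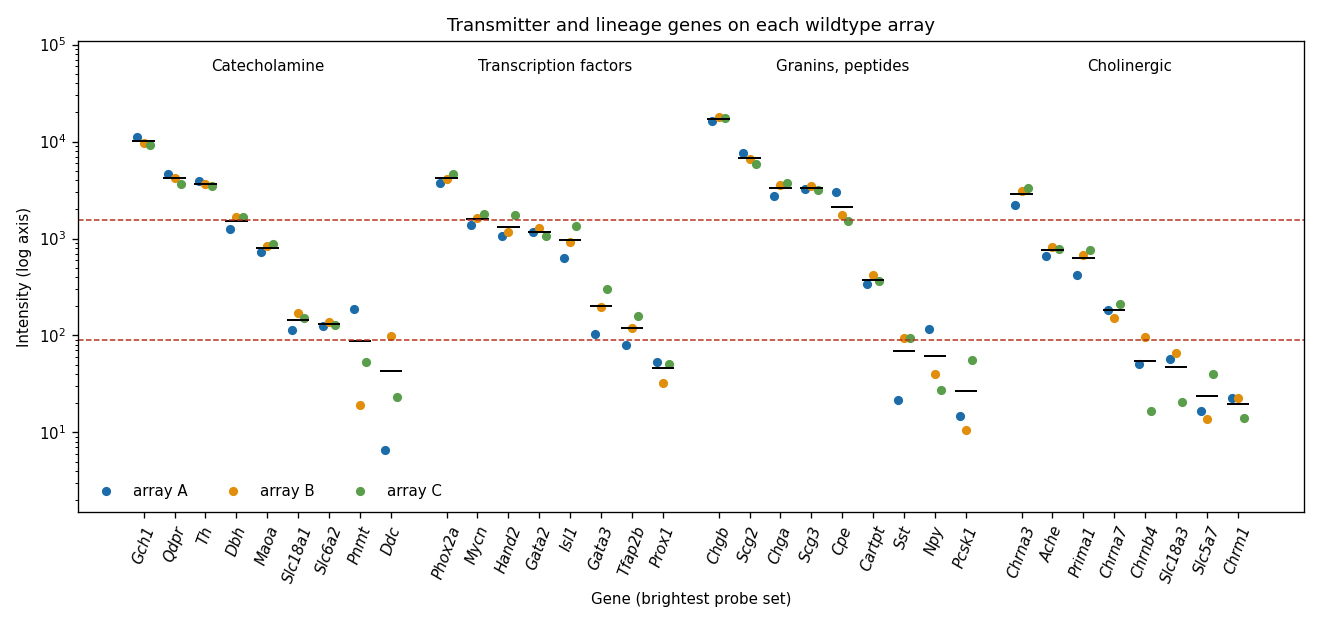
Intensity on each wildtype array (points, coloured by array, log axis) of catecholamine, lineage factor, granin and peptide, and cholinergic genes, with the 3-array mean as a black bar and the limits of 1539 and 89.7 as dashed lines. Bright genes such as Gch1, Chgb and Chrna3 have points close together, and genes under the lower line such as Ddc, Pnmt and Pcsk1 have points far apart.

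Of 15 cholinergic genes, 1 was bright, 7 between and 7 near background. The bright one was Chrna3, a nicotinic receptor subunit of autonomic neurons, at 2210.1, 3118.4 and 3313.9. Chrnb4, which pairs with it in ganglia, read 50.9, 95.6 and 16.5, and Chrnb2 had a mean of 298 ± 67. Prima1, which anchors acetylcholinesterase to membranes, read 425.1, 674.6 and 769.0. The vesicular acetylcholine transporter gene Slc18a3 (47.6 ± 23.7) and the choline transporter gene Slc5a7 (23.5 ± 14.6) were near background on each array. Of the muscarinic receptors, Chrm1 had a mean of 19.8 ± 4.89, Chrm3 of 38.1 ± 20.1 and Chrm4 of 74.6 ± 28.5.

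Receptors that have been studied in this line were bright in 2 of 22 cases, between in 11 and near background in 9. Their bright share of 9.09% was near the 11.2% of all genes. Htr3a, a serotonin-gated channel subunit, read 2812.9, 3230.0 and 3274.7, whereas its partner subunit Htr3b had a mean of 121 ± 51.6. F2r, a thrombin receptor, read 2759.5, 2894.4 and 2835.1. Adcyap1r1, the receptor of the peptide PACAP, had a mean of 718 ± 116, and P2rx7, an ATP-gated channel, 478 ± 79.7. The histamine receptor gene Hrh1 read 157.2, 89.5 and 118.3, and the neurotensin receptor gene Ntsr1 had a mean of 55.2 ± 22.6. A receptor gene near background on 1 or a few probe sets is not shown to be silent.

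Of 31 growth factor receptors, 1 was bright, 23 between and 7 near background, and the bright one was Ret. Ret, the signalling receptor for GDNF-family ligands, read 4635.8, 4346.4 and 4704.2 and ranked 627. Its co-receptors Gfra1, Gfra2, Gfra3 and Gfra4 had means of 156 ± 16, 235 ± 53, 259 ± 39.2 and 111 ± 33.2. Ngfr, the low-affinity neurotrophin receptor, read 1157.3, 1137.7 and 1375.6, and Alk, a receptor kinase mutated in some neuroblastomas, 248.9, 345.7 and 354.2. Ntrk2 and Ntrk3 had means of 264 ± 9.18 and 222 ± 37.9. Kit (74.4 ± 38.1), Pdgfra (64.7 ± 56.4) and Met (19.7 ± 2.81) were near background.

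Of 37 genes of the neuronal cytoskeleton and growth cone, 17 were bright, 18 between and 2 near background. Tuba1a, an alpha tubulin, had a mean of 17533 ± 375, and Tmsb10, which binds actin monomers, 17496 ± 249.8. Prph, which encodes peripherin, the intermediate filament of peripheral neurons, read 16529.8, 17147.2 and 13430.0 and ranked 114. The neurofilament genes did not share that level. Nefl read 28.4, 22.9 and 3.1 and Nefm 9.4, 45.4 and 38.9, near background on each array, while Nefh read 893.9, 1128.3 and 1182.1 and Ina, alpha-internexin, 992.8, 1214.5 and 1344.4. The growth cone genes Stmn2 (7938 ± 801) and Gap43 (5941 ± 366) and the neuronal tubulin gene Tubb3 (3559 ± 465) were bright on each array. Dcx, a microtubule protein of migrating neurons, had a mean of 134 ± 19.9.

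Genes of synaptic vesicle release lay mostly between the limits, with 5 of 27 bright, 19 between and 3 near background. Their median percentile among all probe sets was 83.9, against 56.3 for all genes by their brightest probe sets. With the mean of all probe sets of a gene, 2 were bright. Cplx1, a regulator of SNARE complexes, read 3372.3, 5104.6 and 5079.7, lowest on array A. Snap25, a SNARE protein, had a mean of 1578 ± 61.9, Syt1, the calcium sensor, 1276 ± 92.4 and Syp, a vesicle membrane protein, 1134 ± 127. The vesicle SNARE Vamp2 had a mean of 255 ± 12.2. Cadps, which primes dense core vesicles (17.2 ± 9.25), and Rph3a, an effector of Rab3 (6.80 ± 2.29), were near background on each array.

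Of 9 genes of other transmitters, 0 were bright, 3 between and 6 near background. The vesicular glutamate transporter gene Slc17a6 (40.5 ± 26), the glutamate decarboxylase gene Gad1 (18 ± 2.44), the vesicular GABA transporter gene Slc32a1 (13.2 ± 6.15) and the serotonin transporter gene Slc6a4 (12.6 ± 2.42) were under the limit on each array. Slc6a9, a glycine transporter, read 594.5, 673.5 and 726.5. Of 28 voltage-gated channel genes, 0 were bright and 14 near background. Kcnh2, a potassium channel, had a mean of 754 ± 85.7, Scn3b, a sodium channel beta subunit, 749 ± 47.9 and Cacna1h, a low-threshold calcium channel, 316 ± 42.4. The sodium channel alpha subunit Scn9a had a mean of 67.1 ± 10.7.

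Of 54 neural crest and craniofacial regulators, 3 were bright, 28 between and 23 near background. Without array C, 2 were bright. The bright ones were Myc, Mycn and Id1, an inhibitor of bHLH factors at 1627.7, 1438.0 and 1628.8. Foxd3 (14.1 ± 3.82), Snai2 (10.7 ± 8.55), Twist1 (17.3 ± 7.51) and Prrx1 (54 ± 5.87), which mark migrating crest and its mesenchyme, were near background on each array. Sox10 and Pax3 lay above the limit, at 184 ± 26 and 160.1 ± 23.8. Of 31 genes of the homeobox clusters, 0 were bright and 25 near background. The brightest were Hoxc9 (335.0, 444.8 and 491.3) and Hoxc6 (212.5, 244.5 and 262.7).

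Surface molecules described in neuroblastoma were bright in 7 of 30 cases and near background in 12. With the mean of all probe sets of a gene, 3 were bright. Cd24a had a mean of 4873 ± 88 and L1cam, a neural adhesion molecule, 2532 ± 196. Ncam1 read 1413.6, 1631.0 and 1544.4, with a mean just short of the limit. St8sia1 (64.8 ± 3.03) and B4galnt1 (20.8 ± 3.96), enzymes of ganglioside synthesis, and the chemokine receptor gene Cxcr4 (14.7 ± 11.6) were near background on each array, and Thy1 lay just above the limit at 94.8 ± 3.16. Of 31 imprinted and fetal growth genes, 4 were bright, or 12.9%, near the 11.2% of all genes, and 12 were near background. Gnas (10401 ± 941), Mest (5394 ± 604) and Peg3 (4082 ± 789), which are imprinted, and Igfbp4, which binds insulin-like growth factors (4981 ± 250.3), were bright. Igf2 read 47.6, 49.0 and 43.2 on its brighter set, and the growth inhibitor Cdkn1c 7.5, 74.2 and 39.3. Lin28a, an RNA-binding protein of embryonic cells, was between the limits at 1433.5, 1238.9 and 1477.1.

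Among probe sets with 1 gene symbol, those of ribosomal protein genes were the most frequent at the top of the ranking. The 25 brightest of these reached down to rank 59 of all probe sets. They belonged to 22 genes, of which 14 encoded cytosolic ribosomal proteins. They began with Rpl41 (31576.2, 32487.5 and 28889.9), Eef1a1, an elongation factor (29144.2, 29712.0 and 25827.4), and Actb (25671.4, 25720.3 and 23771.8). The other 6 genes were Lgals1, which encodes a galectin, Tubb5, a beta tubulin, the aldolase gene Aldoa, the mitochondrial protein gene Chchd10, Tpt1 and the cytokine gene Mif. Of the 25 brightest probe sets of any kind, 9 had exactly 1 symbol and the others stay unnamed here.

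Of 79 listed ribosomal protein genes, 43 were measured, so the counts do not cover the whole family. Of these 43 genes, 36 were bright on each array and 7 between, with a median of 17509. The 7 included Rps6 (185.9, 157.9 and 189.2) and Rpl12 (206.4, 291.1 and 214.1), which lay near the median of all probe sets. Of 30 translation factors 29 were bright, of 63 oxidative phosphorylation genes 56, of 34 chaperones 27, of 29 housekeeping reference genes 25 and of 21 glycolysis genes 14. Tbp and Polr2a, the housekeeping genes of basal transcription, lay between the limits at 511 ± 44.8 and 432 ± 81.1. Cox8b (23.6 ± 8.52), a muscle form of a cytochrome oxidase subunit, was near background, and so by its mean was Cox7c (75.9 ± 17.7), another subunit of that enzyme. Among chaperones, Hspa8, the constitutive heat shock cognate, read 18578.8, 16929.6 and 16974.7, while its stress-induced relatives Hspa1a and Hspa1b read 18.9, 12.5 and 5.8 and 53.6, 47.0 and 22.9.

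Of 30 genes of treacle and the RNA polymerase I machinery, 10 were bright and 0 near background. Npm1, Ncl and Fbl, abundant nucleolar proteins, had means of 13345 ± 1070.3, 8190.4 ± 214 and 3849.7 ± 234, and Tcof1, Rrp9 (179 ± 65), Taf1a (171 ± 37.5) and Ttf1 (115 ± 21.9) were the dimmest of the list. Glycolysis was led by Aldoa (21259.9 ± 1626), Pgk1 (19076 ± 880.3) and Ldha, with the neuronal glucose transporter gene Slc2a3 at 10276 ± 409 and the pyruvate dehydrogenase kinase gene Pdk1 near background at 42.2 ± 19.3.

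Cell cycle genes lay mostly between the limits. Their median percentiles were 71.2 for DNA replication and 70.6 for mitosis, against 56.3 for all genes by their brightest probe sets. Of 51 DNA replication genes, 4 were bright, 42 between and 5 near background, and of 46 mitosis genes, 7, 37 and 2. Cdt1, which licenses origins, had a mean of 3803 ± 563, the helicase subunit gene Mcm7 2977 ± 605 and the sliding clamp gene Pcna 2846 ± 685.6. Cdc6 (57.8 ± 32.7) and the thymidylate synthase gene Tyms (44.3 ± 12) were near background. Pttg1, which encodes securin, had a mean of 5425 ± 2188, Cdk1, the mitotic kinase, 1591 ± 404 and Mki67, a proliferation marker, 526 ± 189.9. Both Cdt1 and Pttg1 had another probe set near background. With the mean of all probe sets of a gene, 2 DNA replication genes were bright. The cyclin gene Ccnd1 (2137 ± 395) and the inhibitor gene Cdkn1a (1782 ± 64.7) were both bright, and Mdm2, the negative regulator of p53, read 1391.0, 1566.7 and 1553.7, with arrays B and C past the bright limit.

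Genes of antigen presentation and interferon response were bright in 6 of 31 cases and near background in 7. The class I genes H2-D1 (4714 ± 674) and H2-K1 (2257 ± 291) and their partner B2m (3668 ± 328) were bright on each array. The peptide transporter gene Tap1 had a mean of 198 ± 54.2 and the antiviral gene Mx1 32 ± 6.76. Of 34 immediate early genes, 4 were bright, or 11.8%, near the 11.2% of all genes, and 7 were near background. Dusp6, a phosphatase of the ERK pathway, had a mean of 5032 ± 536, and Egr1 read 1748.2, 3273.8 and 1883.5. Egr1 was highest on array B.

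Among markers of other cell types, 10.3% of the fibroblast and matrix list were bright, near the 11.2% of all genes. The share was 5% for Schwann cell and glia markers and 0 for the other lists. Of 20 Schwann cell and glia markers, 1 was bright and 12 near background, and the bright one was Pmp22, a membrane protein also found outside glia, at 8958.1, 7469.9 and 6422.9. Foxd3, S100b (30 ± 16.8) and Olig2 (2.53 ± 0.924) were near background, and Gfap had a mean of 133 ± 7.43. The summed intensity of the list was 10894, 9566 and 8494 on arrays A, B and C, and most of each sum was Pmp22 alone. Of 29 fibroblast and matrix markers, 3 were bright and 17 near background. The bright ones were Vim (16306 ± 314), Fn1 (3248 ± 246) and Fbln2 (2215 ± 484). The collagen genes Col1a1 (87.1 ± 17.8) and Col3a1 (34.5 ± 24.1) and Dcn (42.9 ± 38) were near background by their means. The summed intensity of the list was 25665, 25047 and 24655 on arrays A, B and C, and most of each sum was Vim alone. Of 27 blood and immune markers, 0 were bright and 16 near background. Cd74 was brightest at 972.9, 953.1 and 858.9, Ptprc, the pan-leukocyte marker, had a mean of 22.7 ± 8.86, and the summed intensities were 3054, 3210.2 and 3159 on arrays A, B and C. Of 16 endothelial and melanocyte markers, 0 were bright, 10 between and 6 near background, a share of 37.5% that is near the 30.6% of all genes. Cdh5 was at 66.7 ± 15.8, Tyr at 106 ± 15.8, and the summed intensities were 1618, 1786 and 1602 on arrays A, B and C. No marker was listed at 0.

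**Figure D3:**
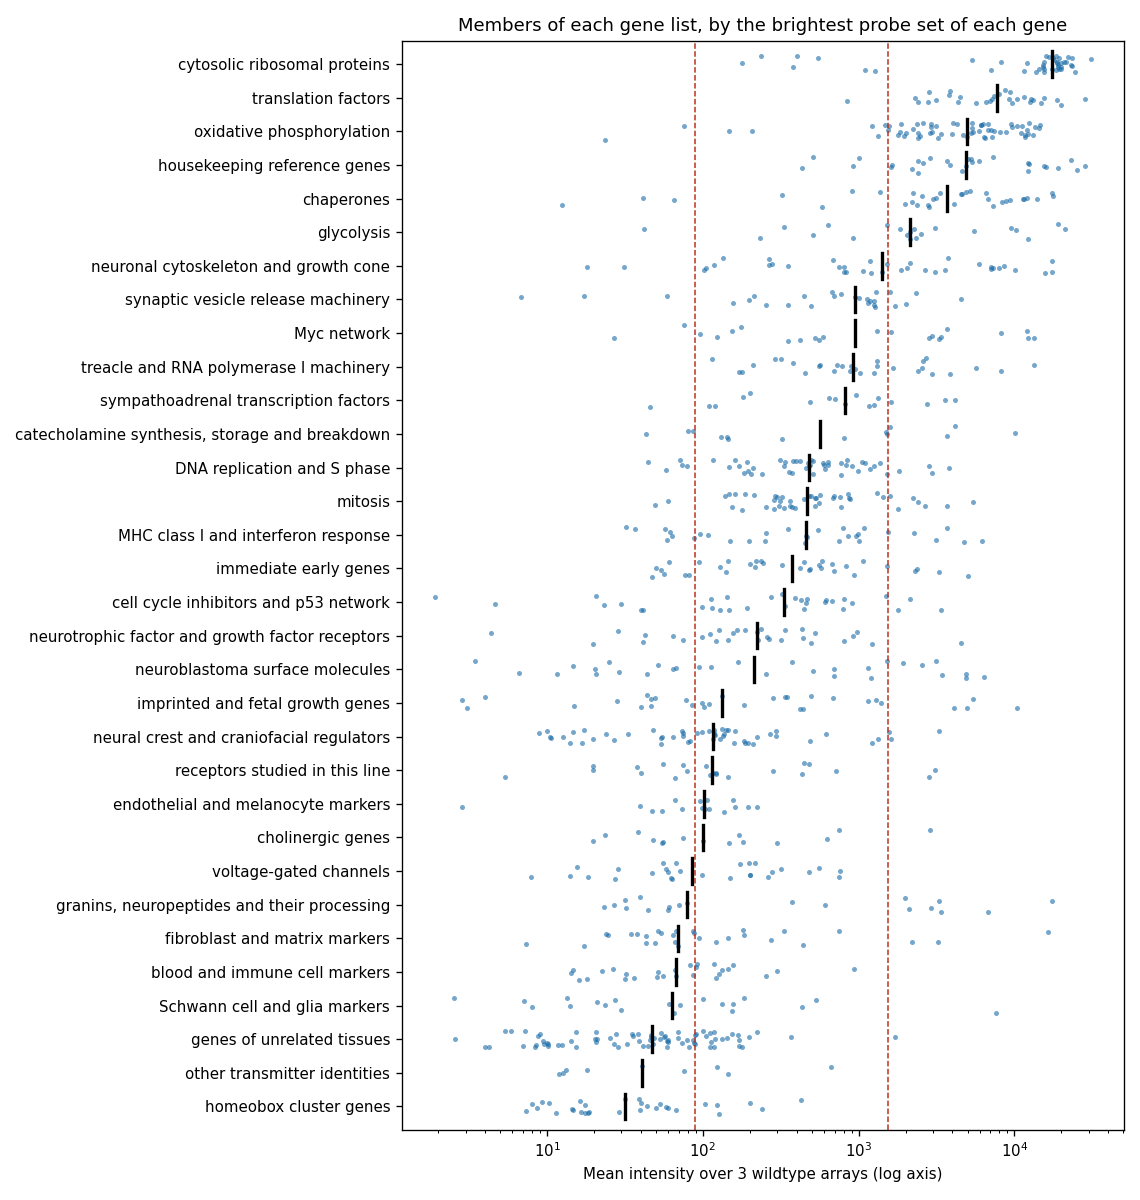
Mean intensity over the 3 wildtype arrays (log axis) of each measured member of 32 gene lists, ordered by list median (black bar), with the limits of 1539 and 89.7 as dashed red lines. Ribosomal proteins have the highest median, 17509, and homeobox cluster genes the lowest, 31.4, and the granin and peptide list is split between both sides.

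Over all measured genes, brightness went with the makeup of promoters in the reference table, though bright lists differed from each other. Of 12566 promoters with a measured gene, those of bright genes had a median of 23 CpG dinucleotides in the 300-base window and those of near-background genes 7. The GC box GGGCGG was found in 67.6% of bright and 36.1% of near-background promoters, against 55.4% of the promoters of measured genes. CCGGAAG, the core of the site of ETS-family factors, was in 23% of bright, 5.02% of near-background and 14% of all these promoters. TATAAA was in 8.59% of bright, 7.12% of between and 16.3% of near-background promoters, and in 9.81% of them all. Both strands were searched, and a gene with several annotated starts counts once for each.

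Within lists, CCGGAAG was in 43.2% of 44 ribosomal protein promoters and in 31.4% of 35 promoters of the RNA polymerase I list. It was in 3.23% of glycolysis and 7.69% of housekeeping promoters. GGGCGG was in 91.4% of chaperone promoters, but in 54.5% of ribosomal protein and 35.7% of oxidative phosphorylation promoters. The E-box CACGTG, the site of Myc with Max, was in 37.0% of 27 Myc network and 34.5% of 29 translation factor promoters, against 9.11% of the promoters of measured genes. TATAAA was in 40.6% of 69 promoters of unrelated tissues and GGGCGG in 11.6% of them. In ribosomal protein promoters TATAAA was in 11.4%, against 9.81% of the promoters of measured genes. The ribosomal genes Rpl41 and Rpl38 and the dim genes Fshb, a pituitary hormone subunit, and Reg3g, a gut lectin, are printed as examples. They were chosen after the values were seen, and Fshb and Reg3g also because TATAAA lies close before their start. Capitals mark CCGGAAG in the first pair and TATAAA, on either strand, in the second. The windows are chr10:128549149-128549268 (minus strand) for Rpl41, chr11:114668480-114668599 (plus strand) for Rpl38, chr2:107059632-107059751 (minus strand) for Fshb and chr6:78468855-78469045 (minus strand) for Reg3g, and the last runs from 171 bases before the start.
Rpl41: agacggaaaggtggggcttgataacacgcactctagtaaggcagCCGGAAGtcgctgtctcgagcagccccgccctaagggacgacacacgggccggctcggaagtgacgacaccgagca
Rpl38: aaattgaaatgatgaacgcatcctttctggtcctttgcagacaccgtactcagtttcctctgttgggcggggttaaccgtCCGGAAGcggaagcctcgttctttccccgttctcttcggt
Fshb: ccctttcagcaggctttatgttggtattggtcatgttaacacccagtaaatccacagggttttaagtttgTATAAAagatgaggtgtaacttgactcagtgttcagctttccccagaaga
Reg3g: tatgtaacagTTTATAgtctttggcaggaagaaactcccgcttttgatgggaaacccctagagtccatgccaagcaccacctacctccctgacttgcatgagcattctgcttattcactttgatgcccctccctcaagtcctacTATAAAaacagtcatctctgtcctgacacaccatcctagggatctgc
Rpl41 and Rpl38 read 30984 ± 1870.4 and 21544 ± 699, and Fshb and Reg3g 4 ± 2.09 and 10.1 ± 3.44. In Fshb and Reg3g the copy of TATAAA nearest the start begins 30 and 27 bases before it, a position fixed by how these genes were chosen.

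**Figure D4:**
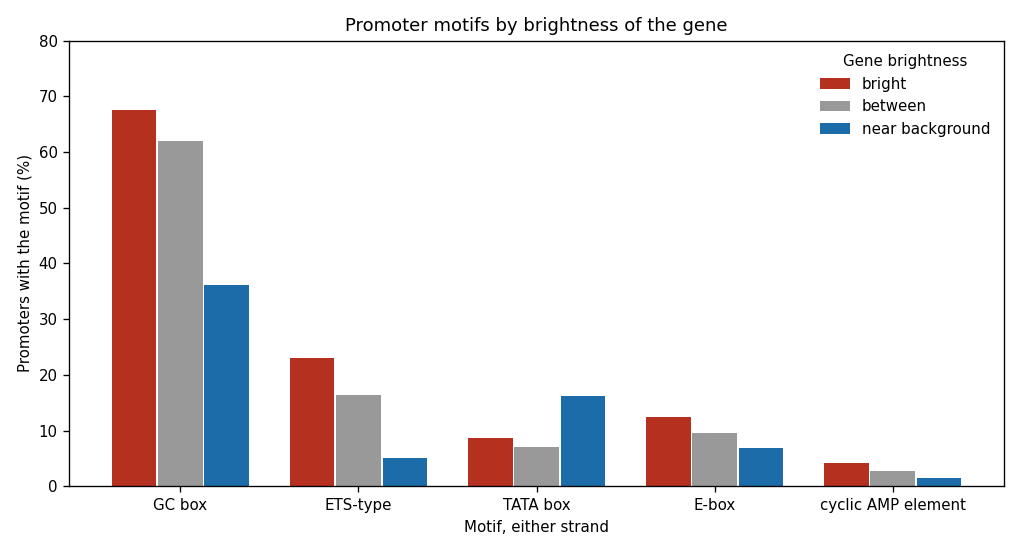
Share of promoters (%) with each of 5 motifs on either strand, for bright (red), between (grey) and near-background (blue) genes. The GC box and the ETS-type motif are most frequent in bright genes, and the TATA box in near-background genes and least frequent in those between.

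The 3 arrays were close to each other over all probe sets, and genes of cell division differed most among the lists. Pearson's r of log2(intensity + 16) across probe sets was 0.976 for arrays A and B, 0.973 for A and C and 0.978 for B and C, where genes within an array are not independent. The median SD over the arrays was 0.21 on that scale for all probe sets, 0.13 for bright and 0.32 for near-background ones. Among the 44 mitosis genes above background, the median deviation from the 3-array mean was -0.36 on array A, 0.08 on B and 0.31 on C. Array A was the lowest in 40 of the 44 and array C the highest in 35, where 40.1% and 32.6% of all 8598 genes above background did so. Pttg1 read 3154.1, 5603.4 and 7518.3, Cdk1 1206.4, 1554.0 and 2012.4, Top2a 956.5, 1307.5 and 1671.2 and Mki67 338.0, 521.9 and 717.7. Each was lowest on array A and highest on array C.

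Of 46 DNA replication genes above background, 36 were lowest on array A and 27 highest on array C, with median deviations of -0.22, 0.005 and 0.24. Pcna read 2141.7, 2883.9 and 3511.3 and Mcm7 2510.8, 2760.1 and 3660.9, in the same order. On its brightest probe set Cdt1 differed from them, at 4438.3, 3604.0 and 3366.9, highest on array A. Sympathoadrenal factors had deviations of -0.13, -0.0005 and 0.17. Ribosomal protein genes went the other way, highest on array A in 30 of 43 and lowest on array C in 36, where 34.1% and 37.5% of all genes above background did so. Their deviations were 0.10, 0.01 and -0.11. Quantile normalization reduced their difference between arrays C and A from -0.213 to -0.0529. Deviations over all genes were -0.01, 0.02 and -0.01. Array A also read lowest on the 3 control sets for 18S ribosomal RNA, with 1820.7 on the middle set against 5099.6 on B and 3953.6 on C. The part of RNA quality in these differences was not tested.

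**Figure D5:**
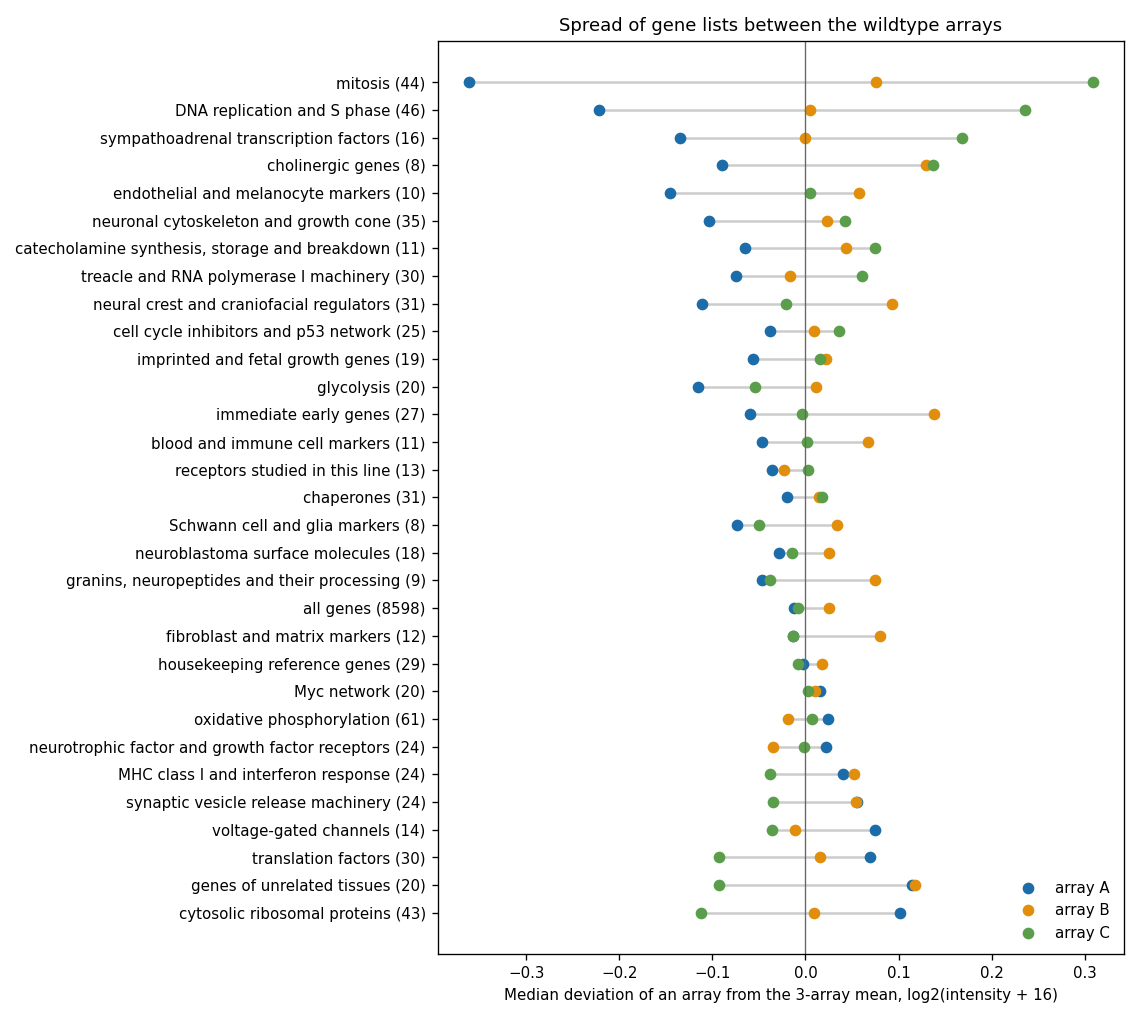
Median deviation of each wildtype array from the 3-array mean, in log2(intensity + 16), for each gene list with at least 8 members above background (number in brackets) and for all genes. The mitosis and DNA replication lists span the widest range, from -0.36 to 0.31 and from -0.22 to 0.24, and the medians over all genes lie between -0.01 and 0.02.

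Single genes varied more. Of 6966 genes brighter than the median probe set, the largest SD belonged to Spdl1, a spindle protein, at 26.1, 220.8 and 419.5. Utf1, a factor of undifferentiated embryonic cells, read 586.5, 67.9 and 474.8, and Gstm3, a glutathione transferase, 63.2, 397.7 and 375.0. Ercc6l, a helicase of mitotic chromosomes, read 56.8, 187.5 and 306.3, and Sfpq, a splicing factor, 215.4, 514.6 and 999.3. The other 5 of the 10 most variable were Tbxa2r, Tubb4a, Vmn1r44, Cklf and Lsm7. Of the 10, 7 were lowest on array A.

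Probe sets of the same gene did not always fall in 1 class. Of 4956 genes with at least 2 probe sets, 217 had 1 set bright and another near background, or 4.38%. They included 41 genes of the lists, among them Mycn, Gnas, Fn1, Hspa8, Tmsb10, Cdt1, Pttg1 and Rpl41. For the 7437 genes with 1 probe set, Th, Ddc and Ret among them, no such comparison is possible.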

How the data were processed

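RNA of wildtype N1E-115 cells was measured on 3 arrays with 1 value per probe set and array. The deposited values are linear intensities, and the authors scaled them: from the values, the mean without the lowest and highest 2% is 500.2 on each array. No label or file header names the software, no detection calls were used, and precision is limited by having 3 arrays. Of 22690 probe sets, 64 controls were set aside. GEO's platform annotation gave 1 symbol for 20380, several for 691 and none for 1555, and 20351 matched RefSeq (GRCm38.p6). Members and lists were chosen with earlier results of these data known, and of 1097 listed genes 955 were measured.

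Probe sets were ranked by mean intensity with Python 3.11.15, pandas 2.3.3 and NumPy 2.4.6. Spread was computed on log2(intensity + 16). The classes were tested on simulated data with planted levels far from both limits. That could not test calls near a limit or the use of a gene's brightest probe set. Named genes are Tcof1, the markers of the line, the 25 brightest named probe sets, the 10 most variable genes above the median, and per list up to the 6 brightest and 4 dimmest members plus textbook genes of a cell type or step; some others were named after their values were seen. The alternatives were other scalings, means, limits, probe set rules, pseudocounts and leaving out each array. Protein features were not analysed here.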

Additional observations from a re-analysis of the deposited data

How the results depend on the processing

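No paired analysis was possible because the arrays form 1 group and no comparison between groups was made. The count of bright markers stayed at 3 under each scaling, with the mean of log2 values and without each array in turn, and was 2 with bright as the top 5% and 4 as the top 20%. Under those scalings, that mean and the left-out arrays, 23 to 25 of the 25 brightest named probe sets were shared. The number of bright list genes, 271, ran from 197 with bright as the top 5% to 361 as the top 20%. The number near background, 268, fell to 166 with the limit at the median of unrelated tissue genes, which is a lower limit by construction, and was 371 at their 90th percentile. Of 66 counts per list, 0 moved by over 1.5 times under either scaling, 1 without array A, 0 without B and 1 without C, 6 with the mean of all probe sets of a gene and 4 without the probe sets whose names mark them as less specific (such as s and x). More moved with other limits: 12 with bright as the top 5%, 13 as the top 20%, 15 with background at the median of unrelated tissue genes and 12 at their 90th percentile. For example, bright genes of the RNA polymerase I list went from 10 to 5 or 18 and of glycolysis from 14 to 7 or 16 at the top 5% or 20%. Ribosomal protein genes near background went from 0 to 4 without those less specific sets. With the mean of all probe sets of a gene, bright surface molecules went from 7 to 3 and bright synaptic vesicle genes from 5 to 2. Bright DNA replication genes and sympathoadrenal factors each went from 4 to 2. Leaving out array A or C moved the sympathoadrenal factors near background from 1 to 2. The difference between arrays C and A, an analysis chosen after seeing the data, went for ribosomal proteins from -0.213 to -0.0529 with quantile normalization, and the cause was not tested. For mitosis genes it was 0.61 to 0.70 and for DNA replication genes 0.39 to 0.48 under the alternatives. With no detection calls, a gene near background has no lower bound on its level.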

Other observations

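Some of the brightest genes lay outside every list. Asns, which makes asparagine, had a mean of 12963 ± 450.2, and Sars and Gars, which charge transfer RNA, 12346 ± 1209 and 11698 ± 2001. Rhox5, a homeobox gene of the X chromosome known from reproductive tissues, read 10420.3, 10492.3 and 10811.2. Fth1, a ferritin chain, had a mean of 16387 ± 1025, and Gas5, a non-coding host of small nucleolar RNAs, 14882 ± 2116. These genes were chosen after their values were seen.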
